A study of Mus musculus with 2 samples.

Results

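Mast cells and basophils store proteases, amines and a highly charged proteoglycan in secretory granules, and 10 genes of this granule content are described here in 2 RNA libraries from the skin of mouse embryos. The genes were chosen by symbol for their known roles: the serine proteases Cma1, Mcpt4, Mcpt8, Ctsg, Tpsb2 and Tpsab1, the metalloprotease Cpa3, the histamine-forming enzyme Hdc, the amine transporter Slc18a2 and the proteoglycan core protein Srgn. All 10 were found among the 24319 rows of the deposited tables. The choice was made with earlier results from the same libraries known, so the differences given for these genes are descriptions.

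The first library was labelled Dot1l Knockout and the second Wild type. Both were labelled as lymphatic endothelial cells (LECs) of skin from C57BL/6 embryos at E15.5, an embryonic day of mid to late gestation. Dot1l encodes the histone methyltransferase of lysine 79 on histone H3, and the deleted line is written Dot1lΔEC in the labels. The sources used here do not name a Cre driver or the purification, and do not say whether the sequenced cells had been cultured. RNA of 2 to 3 biological replicates was pooled for each library, so each genotype has 1 library, no spread between replicates can be had, and no test was run.

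In mast cells the negatively charged glycosaminoglycan chains on serglycin, the product of Srgn, hold proteases and histamine in the granule, and the content is released when receptors such as the IgE receptor or Mrgprb2 are engaged. Mouse mast cells of connective tissue, skin included, are known for the chymases Mcpt4 and Cma1, for Cpa3 and for tryptase. Mouse basophils are marked by Mcpt8, and mast cells of mucosa carry Mcpt1 and Mcpt2. Mast cell precursors colonise the skin of the mouse before birth.

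All 10 granule genes had higher values in the library labelled knockout than in the wild-type library. Levels are given as FPKM, the authors' number of fragments per kilobase of transcript, scaled to 1000000 mapped fragments, and differences as log2(FPKM + 1) in the library labelled knockout minus wild type, a scale that understates the change of low genes. The 10 FPKM values summed to 13839 in the library labelled knockout and 111 in the wild-type library. These sums were 2.61% and 0.0266% of the FPKM of each library. Each of the 10 genes was higher by 2-fold or more, and each was higher by 16-fold or more on this scale, with its pseudocount of 1. Among the 13296 genes with at least 1 FPKM in either library, 16.8% were higher by 2-fold or more, 32.3% differed by 2-fold or more in either direction and 2.01% were higher by 16-fold or more. The genes lower by 2-fold or more numbered 2060. The median log2 difference was 6.32 over the 10 granule genes and 0.00 over all 13296 genes. Because the same contrast was in view when the genes were chosen, nothing is read from these shares. In a bulk library, fewer cells of a type and less RNA per cell cannot be told apart.

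**Figure D1:**
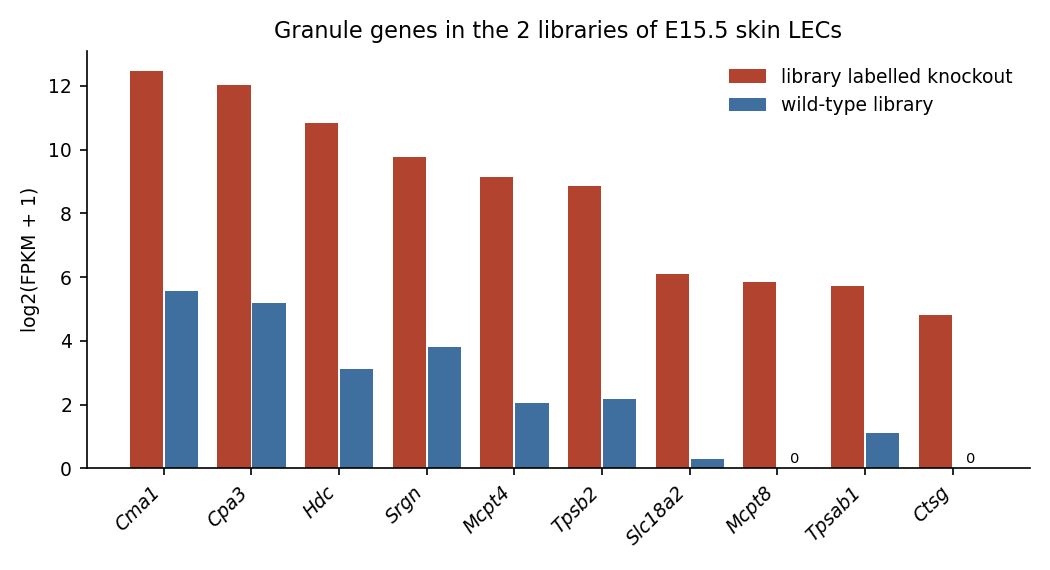
Level of each granule gene as log2(FPKM + 1) in the library labelled knockout (left bar) and the wild-type library (right bar), 1 library each and no error bars, with genes ordered by level in the library labelled knockout. Each left bar is higher than its partner, Cma1 (5706 FPKM) and Cpa3 (4211 FPKM) are the tallest, and Mcpt8 and Ctsg are listed at 0 in the wild-type library.

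The chymases were led by Cma1, which encodes mouse mast cell protease 5 and is stored together with carboxypeptidase A3. Cma1 was 5706 FPKM in the library labelled knockout and 46.2 FPKM in the wild-type library, a ratio of 124. In the library labelled knockout it ranked number 1 of 20463 rows matched to a protein-coding gene, and in the wild-type library it ranked number 1535. Mcpt4, the mouse chymase closest in activity to the human enzyme, was 565 FPKM in the library labelled knockout and 3.13 FPKM in the wild-type library, a ratio of 180.2. Both genes were thus detected in each library, and Cma1 exceeded Mcpt4 by 10.1-fold in the library labelled knockout and 14.7-fold in the wild-type library.

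Cpa3, the zinc carboxypeptidase of mast cell granules, stood next to Cma1 in level. It was 4211 FPKM in the library labelled knockout and 35.8 FPKM in the wild-type library, a ratio of 118. The quotient of Cma1 over Cpa3 was 1.36 in the library labelled knockout and 1.29 in the wild-type library. Cma1 and Cpa3 together made up 71.7% of the granule gene total in the library labelled knockout, against 74.0% in the wild-type library.

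The tryptases Tpsb2 and Tpsab1 encode mouse mast cell proteases 6 and 7. Tpsb2 was 459 FPKM in the library labelled knockout and 3.55 FPKM in the wild-type library, a ratio of 129. Tpsab1 was 52.3 FPKM in the library labelled knockout and 1.18 FPKM in the wild-type library, a ratio of 44.3 and the smallest among the 8 granule genes that were above 0 in both libraries. RefSeq annotates Tpsab1 as a transcribed pseudogene on the C57BL/6J assembly, and the strain in the labels is C57BL/6. Tpsb2 exceeded Tpsab1 by 8.78-fold in the library labelled knockout and by 3.01-fold in the wild-type library.

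Mcpt8 and Ctsg were the genes listed at 0 in the wild-type library. Mcpt8, the protease used to mark mouse basophils, was 57.2 FPKM in the library labelled knockout. Ctsg, the chymotrypsin-like cathepsin G of neutrophils, monocytes and mast cells, was 26.9 FPKM in that library. A listed 0 can be a failed estimate, so no fold is given for either gene. Their log2 differences of 5.86 for Mcpt8 and 4.80 for Ctsg rest on the pseudocount of 1, and without the pair the median over the other 8 granule genes was 6.75.

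Hdc, which converts histidine to histamine, had the largest log2 difference of the 10 with a pseudocount of 1, although with a pseudocount of 0.1 Mcpt8 (9.16) and Ctsg (8.08) exceeded it (7.86). Hdc was 1818 FPKM in the library labelled knockout and 7.74 FPKM in the wild-type library, a ratio of 235 and a log2 difference of 7.70. It ranked number 11 among protein-coding rows in the library labelled knockout and number 7119 in the wild-type library. Slc18a2, the vesicular transporter that loads histamine and serotonin into granules, was 67.3 FPKM in the library labelled knockout and 0.241 FPKM in the wild-type library. Its FPKM ratio of 279.8 was the largest of the 8 that have a ratio, but its log2(FPKM + 1) difference was 5.78.

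Srgn, the serglycin core protein, was 876 FPKM in the library labelled knockout and 12.9 FPKM in the wild-type library, a ratio of 67.9. It took 6.33% of the granule gene total in the library labelled knockout, against 11.7% in the wild-type library, whereas Hdc took 13.1% and 6.99%. Serglycin is also made by macrophages, neutrophils, platelets and endothelial cells, Slc18a2 by platelets and monoamine neurons, and Ctsg by neutrophils. Without these 3 genes the median log2 difference over the remaining 7 was 6.84.

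**Figure D2:**
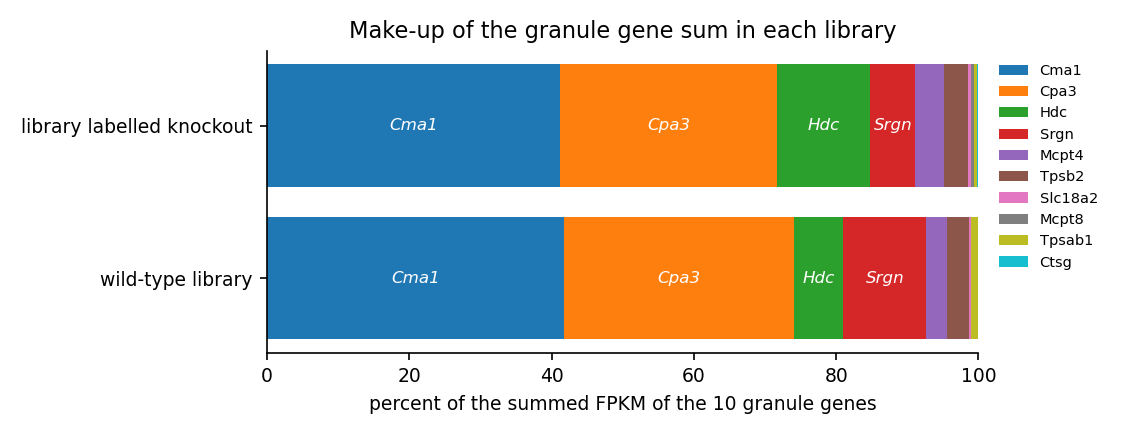
Percent of the summed FPKM of the 10 granule genes taken by each gene, with the library labelled knockout above and the wild-type library below. Cma1 takes 41.2% and 41.7% of the sum, Cpa3 30.4% and 32.3%, Hdc 13.1% and 6.99%, and Srgn 6.33% and 11.7%.

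The order of the levels was alike in the libraries although the sums differed by a factor of 125. Over the 8 genes above 0 in both, Spearman's rho between the libraries was 0.93, a description over genes that share each library. In the library labelled knockout the order from high to low was Cma1, Cpa3, Hdc, Srgn, Mcpt4, Tpsb2, Slc18a2, Mcpt8, Tpsab1 and Ctsg. In the wild-type library it was Cma1, Cpa3, Srgn, Hdc, Tpsb2, Mcpt4, Tpsab1 and Slc18a2. With 1 library of each genotype it cannot be said which neighbours in these orders differ beyond replicate spread. The FPKM ratios of the 8 genes ran from 44.3 to 279.8 with a median of 126.

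The wild-type values rest on few fragments for several of these genes. The steps between low FPKM values imply about 9110000 fragments for the library labelled knockout and 10200000 for the wild-type library, if the authors applied no further scaling. With GENCODE M21 transcript lengths and an assumed fragment of 200 nt, the wild-type values correspond to about 8.83 fragments for Slc18a2, 20.9 for Tpsab1, 29.2 for Mcpt4 and 39.7 for Tpsb2. Those of Cma1 and Cpa3 correspond to about 421 and 458 fragments. These conversions are approximate and cover counting only.

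Family members with near-identical sequence can share reads, so the transcripts were searched for shared windows of 50 nt. None of the windows of Cpa3, Mcpt8, Tpsb2, Tpsab1, Ctsg, Hdc or Srgn occurred in a transcript of another gene. For Cma1 5.38% were shared with the gene model Gm48934, for Mcpt4 5.48% with Cma2, and for Slc18a2 1.39% with Gm29261. The tryptase transcripts thus had no shared window with each other. The sources used here do not state the read length.

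In the chymase locus on mouse chromosome 14, which lies in the RefSeq order Cma1, Cma2, Mcpt1, Mcpt2, Mcpt9, Mcpt4, Mcpt8, Ctsg and then 7 granzyme genes, the values differed widely between neighbours. The 11 genes of the locus other than Cma1, Mcpt4, Mcpt8 and Ctsg were all listed at 0 in the wild-type library. In the library labelled knockout 4 of the 11 were above 1 FPKM and 7 were listed at 0. The mucosal mast cell chymase Mcpt2 was 16.8 FPKM and its partner Mcpt1 was 1.91 FPKM there. Gzmb, the granzyme of cytotoxic lymphocytes that basophils and mast cells can also make, was 9.38 FPKM. Cma2 was 2.96 FPKM, but 46.6% of its windows of 50 nt occur in other genes, mostly in Mcpt9, so its assignment is uncertain. Mcpt4, at 565 FPKM in the library labelled knockout, shares 5.48% of its windows with Cma2. Whether reads of Mcpt4 were counted for Cma2 was not tested. Mcpt9 and the other 6 granzyme genes, Gzmc, Gzmd, Gzme, Gzmf, Gzmg and Gzmn, were listed at 0 in both libraries.

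The tryptase locus on mouse chromosome 17 showed a similar unevenness. Tpsg1, the membrane-anchored tryptase next to Tpsb2, was 16.4 FPKM in the library labelled knockout and 0.290 FPKM in the wild-type library. Of its windows of 50 nt 9.59% were shared with transcripts of Cacna1h, the gene of a calcium channel. Prss34, a serine protease of mouse basophils and mast cells, was 8.36 FPKM in the library labelled knockout and 0.193 FPKM in the wild-type library. Prss28 was 0.107 FPKM and 0, and Prss29 was listed at 0 in both.

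**Figure D3:**
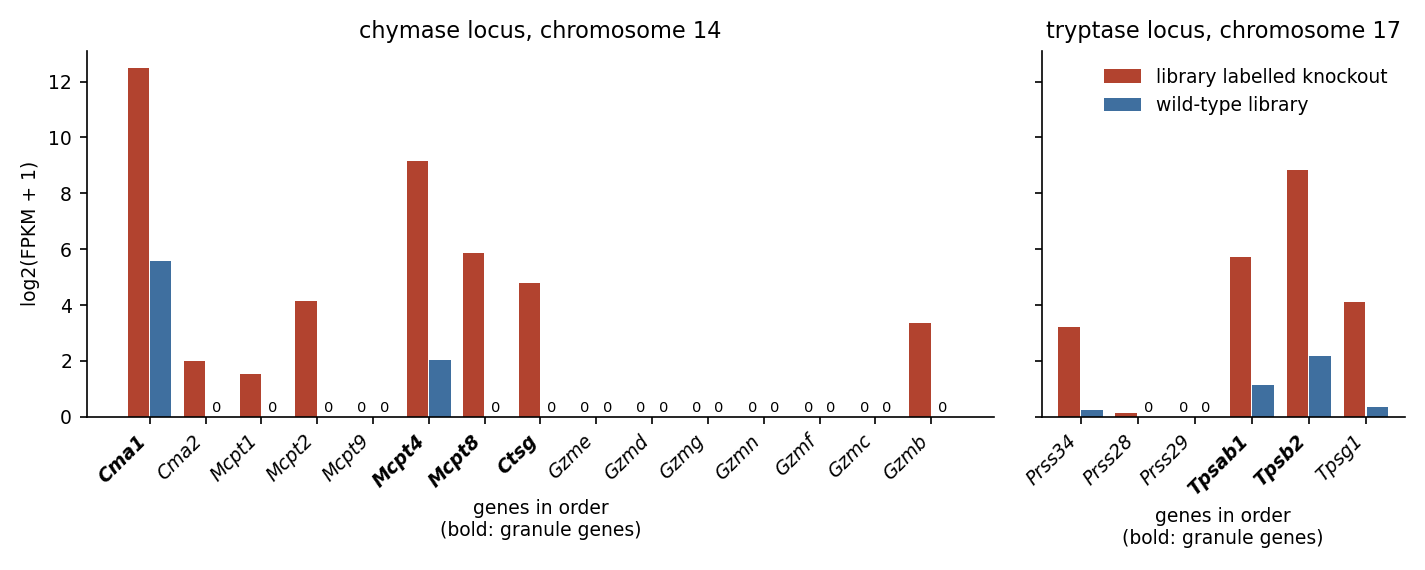
Level as log2(FPKM + 1) of the protease genes of the chymase and tryptase loci in their RefSeq gene order, with the library labelled knockout as the left bar and the wild-type library as the right bar of each gene; other genes lying between them are not drawn. Cma1 (5706 FPKM), Mcpt4 (565 FPKM) and Tpsb2 (459 FPKM) stand above their neighbours in the library labelled knockout, and the granzyme genes other than Gzmb (9.38 FPKM) are listed at 0 in both.

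The sequence before the start of each gene was searched for motifs of factors that act in mast cells, since these genes differed in the same direction. GATA1 and GATA2 bind motifs with a GATA core, and MITF and other basic helix-loop-helix factors bind E-boxes (CANNTG). RefSeq promoters were available for 8 of the 10 genes, on GRCm38.p6, a different build from the mm9 named in the submitters' processing notes. In the 250 bases before the start, AGATAA or TGATAA was present on either strand for 3 of the 8 genes, against 16.6% of 32851 promoters of the same length. When AGATAG and TGATAG were added, a choice made after the first search, 5 of the 8 genes had a match, against 26.5% of promoters. An E-box was present for 7 of the 8, against 66.2% of promoters. Srgn has a pair of annotated starts, and its count takes either. The 5 promoters with a GATA match are printed 5′ to 3′ on the strand of the gene, up to the base before the start, and capitals mark the matches to these 4 motifs or to their reverse complements.

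Cpa3, chr3:20242182-20242431, minus strand: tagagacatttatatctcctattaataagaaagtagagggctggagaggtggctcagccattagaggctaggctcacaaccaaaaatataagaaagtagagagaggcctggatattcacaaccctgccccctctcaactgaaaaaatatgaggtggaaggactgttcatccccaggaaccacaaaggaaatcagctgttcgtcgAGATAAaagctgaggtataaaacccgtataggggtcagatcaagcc

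Mcpt4, chr14:56062311-56062560, minus strand: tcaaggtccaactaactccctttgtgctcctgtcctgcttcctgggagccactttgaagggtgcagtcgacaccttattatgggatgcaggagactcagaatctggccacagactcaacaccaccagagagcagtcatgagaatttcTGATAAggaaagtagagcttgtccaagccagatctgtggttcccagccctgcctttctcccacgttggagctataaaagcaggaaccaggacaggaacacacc

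Slc18a2, chr19:59260628-59260877, plus strand: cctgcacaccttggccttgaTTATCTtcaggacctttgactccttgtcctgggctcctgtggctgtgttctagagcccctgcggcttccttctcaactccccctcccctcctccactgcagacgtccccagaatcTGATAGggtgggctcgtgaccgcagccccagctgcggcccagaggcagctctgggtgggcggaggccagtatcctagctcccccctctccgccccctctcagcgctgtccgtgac

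Cma1, chr14:55944676-55944925, minus strand: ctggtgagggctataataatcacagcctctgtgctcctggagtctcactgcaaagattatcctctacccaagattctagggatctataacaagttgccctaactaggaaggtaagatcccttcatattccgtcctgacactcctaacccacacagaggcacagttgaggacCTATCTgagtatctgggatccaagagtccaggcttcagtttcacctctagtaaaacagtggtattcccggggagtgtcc

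Hdc, chr2:126618679-126618928, minus strand: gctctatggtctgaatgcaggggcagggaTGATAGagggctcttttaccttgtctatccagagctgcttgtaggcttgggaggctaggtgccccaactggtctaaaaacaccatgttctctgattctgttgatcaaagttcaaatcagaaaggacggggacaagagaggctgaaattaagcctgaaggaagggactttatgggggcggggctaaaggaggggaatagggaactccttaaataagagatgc

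In Cpa3 the match AGATAA begins 46 bases before the start, and in Mcpt4 TGATAA begins 103 bases before it. In Slc18a2 the reverse complement TTATCT begins at 230 bases and TGATAG at 115. The match of Cma1 (CTATCT) begins at 79 bases and that of Hdc (TGATAG) at 221. The windows of Mcpt8, Ctsg and Srgn held none of these letters. A match is a description of the sequence and not a bound site.

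Among the receptors by which mast cells are recognised and triggered, 11 of 12 were higher by 2-fold or more in the library labelled knockout and 1 was lower, with a median log2 difference of 3.38. Kit, the receptor for stem cell factor, was 138 FPKM in the library labelled knockout and 7.37 FPKM in the wild-type library. Ms4a2, the beta chain of the IgE receptor, was 34.4 FPKM in the library labelled knockout and 0.174 FPKM in the wild-type library. Its alpha chain gene Fcer1a was 1.40 FPKM in the library labelled knockout and listed at 0 in the wild-type library. Il1rl1, the IL-33 receptor, was 117 FPKM in the library labelled knockout and 0.829 FPKM in the wild-type library. Mrgprb1 and Mrgprb2, the latter a receptor for basic secretagogues, were 5.70 and 6.64 FPKM in the library labelled knockout. In the wild-type library they were 0.0241 and 0.207 FPKM. The exception was Enpp3, an ectonucleotidase that marks human basophils and mast cells, with 3.26 FPKM in the library labelled knockout and 22.6 FPKM in the wild-type library.

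Genes of amine handling other than Hdc and Slc18a2 were higher in 7 of the 8 cases that reached 1 FPKM, of 12 listed, with a median log2 difference of 3.89. Tph1, the enzyme that starts serotonin synthesis, was 32.5 FPKM in the library labelled knockout and 0.0475 FPKM in the wild-type library. Ddc, which completes it, was 31.3 FPKM in the library labelled knockout and 0.442 FPKM in the wild-type library. The serotonin transporter Slc6a4 was 186 FPKM in the library labelled knockout and 0.948 FPKM in the wild-type library. Of the degrading enzymes, Maob was 128 FPKM in the library labelled knockout and 3.02 FPKM in the wild-type library, while Maoa was 10.5 FPKM and 16.8 FPKM. Hnmt, which methylates histamine, was 5.35 FPKM in the library labelled knockout and 0.948 FPKM in the wild-type library. Of the histamine receptors, Hrh4 was 3.91 FPKM in the library labelled knockout and 0.0730 FPKM in the wild-type library, and Hrh1, Hrh2 and Hrh3 stayed under 1 FPKM in both.

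A further list, on protease activation and inhibition, holds lysosomal cathepsins and protease inhibitors. Of its 10 measured genes 8 were higher by 2-fold or more and none lower by 2-fold or more, with a median log2 difference of 3.16. Ctsc, the dipeptidyl peptidase that activates granule serine proteases, was 166 FPKM in the library labelled knockout and 11.2 FPKM in the wild-type library. Serpinb1a, an inhibitor of neutrophil-type serine proteases, was 1014 FPKM in the library labelled knockout and 7.52 FPKM in the wild-type library. Cst7, an inhibitor of lysosomal cathepsins, was 29.5 FPKM in the library labelled knockout and 0.378 FPKM in the wild-type library. The lysosomal cathepsins of this list, among them Ctss with 257 FPKM in the library labelled knockout and 1.78 FPKM in the wild-type library, are also abundant in macrophages.

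The enzymes that build the glycosaminoglycan chains of serglycin did not share the size of these differences. Of 22 genes 6 were higher by 2-fold or more, 3 lower by 2-fold or more and 13 within 2-fold, with a median log2 difference of 0.29. Ndst2, the sulfotransferase that mouse mast cells need for heparin, was 24.1 FPKM in the library labelled knockout and 4.03 FPKM in the wild-type library. Papss2, which makes the sulfate donor, was 58.3 FPKM in the library labelled knockout and 5.72 FPKM in the wild-type library. Ndst1, the widely expressed relative of Ndst2, was 9.60 FPKM in the library labelled knockout and 14.1 FPKM in the wild-type library. The 3 lower genes were Glce (5.87 and 15.0 FPKM), Chst15 (7.51 and 21.1 FPKM) and Csgalnact1 (6.09 and 19.9 FPKM), each with the library labelled knockout first.

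Of 18 measured genes of granule secretion 9 were higher by 2-fold or more, 1 lower and 8 within 2-fold, with a median log2 difference of 0.96. Rab44, a large Rab GTPase of mouse mast cell degranulation, was 64.8 FPKM in the library labelled knockout and 0.0246 FPKM in the wild-type library. Rab27b, which tethers granules at the membrane, was 104 FPKM in the library labelled knockout and 1.06 FPKM in the wild-type library. Stxbp2, the syntaxin-binding partner in mast cell exocytosis, was 29.4 FPKM in the library labelled knockout and 1.12 FPKM in the wild-type library. Among genes of membrane fusion proteins, Vamp8 was 136 FPKM in the library labelled knockout and 42.6 FPKM in the wild-type library, whereas Snap23 lay within 2-fold with 96.3 FPKM in the library labelled knockout and 70.4 FPKM in the wild-type library. The lower gene was Cplx2, a complexin, with 1.86 FPKM in the library labelled knockout and 5.19 FPKM in the wild-type library.

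Transcription factors that act in mast cells were higher by 2-fold or more in 7 of 13 cases and within 2-fold in 6, with a median log2 difference of 1.31. Gata2 was 81.0 FPKM in the library labelled knockout and 6.59 FPKM in the wild-type library, and Mitf was 32.6 FPKM in the library labelled knockout and 2.64 FPKM in the wild-type library. Gata1 was 6.24 FPKM in the library labelled knockout and listed at 0 in the wild-type library. Tal1, at 16.4 FPKM in the library labelled knockout and 8.27 FPKM in the wild-type library, was among the 6 within 2-fold, as were Stat5b, Cebpa, Bhlhe40, Lmo2 and Fli1. Lmo2 was 80.9 FPKM in the library labelled knockout and 81.3 FPKM in the wild-type library, and Fli1 was 61.2 FPKM and 61.3 FPKM. In the list of lipid mediator enzymes 6 of 9 genes were higher by 2-fold or more and 3 within 2-fold. Hpgds, the prostaglandin D2 synthase of mast cells, was 73.0 FPKM in the library labelled knockout and 0.716 FPKM in the wild-type library.

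**Figure D4:**
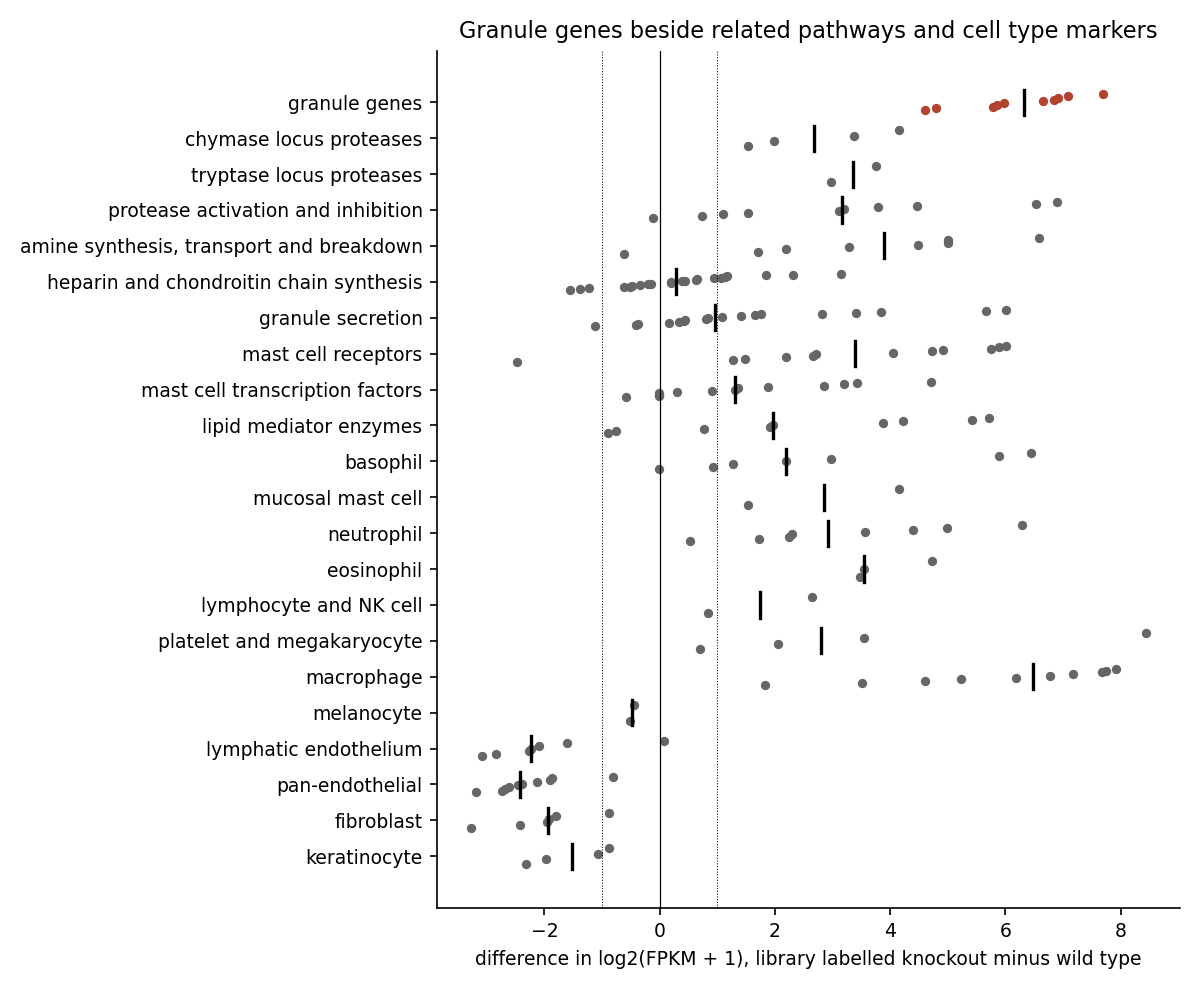
Difference in log2(FPKM + 1), library labelled knockout minus wild type, for each gene at 1 FPKM or more (points) and the median (vertical bar) of the granule genes, the related pathway lists and the cell type marker lists; dotted lines mark 2-fold and lists with fewer than 2 such genes are not drawn. The granule genes lie between 4.61 and 7.70, macrophage markers between 1.83 and 7.93, and lymphatic endothelial markers between -3.09 and 0.07.

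Markers of other leukocytes moved in the same direction as the granule genes. All 10 macrophage markers were higher by 2-fold or more, and only C1qc was listed at 0 in the wild-type library. They summed to 2805 FPKM in the library labelled knockout and 46.7 FPKM in the wild-type library. Of these sums Mrc1 alone held 1211 FPKM and 31.1 FPKM, in the same order. The median log2 difference of the macrophage markers was 6.48, against 6.32 for the granule genes. Their part in the granule gene values was not tested. Of 7 basophil markers 5 were higher by 2-fold or more and none lower by 2-fold or more. Among these markers Prss34, Cd200r3, Il3ra, Fcer1a and Cebpa also belong to the tryptase locus, receptor or transcription factor lists above, so the counts overlap. Il4, a cytokine of basophils and mast cells, was 85.7 FPKM in the library labelled knockout and listed at 0 in the wild-type library, and Cd200r3, a surface receptor gene of mouse basophils and mast cells, was 58.6 FPKM in the library labelled knockout and listed at 0 in the wild-type library. Itga2 and Cebpa lay within 2-fold.

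Neutrophils are known to express Ctsg and Srgn, and of 8 measured neutrophil markers 7 were higher by 2-fold or more, with a summed level of 365 FPKM in the library labelled knockout and 7.43 FPKM in the wild-type library. S100a9, a calcium-binding protein of neutrophils and monocytes, was 205 FPKM in the library labelled knockout and 1.63 FPKM in the wild-type library, and its partner S100a8 was 104 FPKM and 3.98 FPKM. Retnlg was 30.6 FPKM and the collagenase Mmp8 10.8 FPKM in the library labelled knockout, and both were listed at 0 in the wild-type library. Elane and Prtn3, the serine proteases stored with Ctsg in neutrophil granules, were listed at 0 in both libraries, and Mpo was 1.56 FPKM in the library labelled knockout and 0.783 FPKM in the wild-type library. Of 8 platelet and megakaryocyte markers 4 reached 1 FPKM, and 3 of these were higher by 2-fold or more. The list summed to 1387 FPKM in the library labelled knockout and 6.48 FPKM in the wild-type library, of which Pf4 alone held 1361 and 2.92 FPKM. The platelet chemokine Ppbp was 18.5 FPKM in the library labelled knockout and 0.673 FPKM in the wild-type library, and the integrin gene Itga2b was 6.41 FPKM and 0.774 FPKM. The platelet glycoprotein gene Gp6 was listed at 0 in both libraries, and Gp9 was at 0 in the library labelled knockout and 0.819 FPKM in the wild-type library. Th and Dbh, markers of sympathetic neurons, which use Slc18a2, were listed at 0 in both libraries. Lymphocyte and NK cell markers summed to 7.93 FPKM in the library labelled knockout and 1.38 FPKM in the wild-type library. Of 7 eosinophil markers 3 reached 1 FPKM: Prg3, Siglecf and Ear2, at 25.4, 10.1 and 10.6 FPKM in the library labelled knockout. All 3 were higher there by 2-fold or more and had 0 FPKM in the wild-type library. The eosinophil list summed to 47.2 FPKM in the library labelled knockout and 0.197 FPKM in the wild-type library. Its other markers stayed under 1 FPKM in both libraries. Prg2 and Ccr3 reached only 0.164 and 0.843 FPKM in the library labelled knockout, against 0 in wild type. Ear1 went the other way, with 0 FPKM in the library labelled knockout and 0.197 FPKM in wild type. The peroxidase gene Epx had 0 in both.

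Markers of the labelled cell type and of other skin cells were read in the same libraries. Of 7 measured lymphatic endothelial markers 6 were lower by 2-fold or more in the library labelled knockout, among them Prox1 with 13.1 FPKM in that library and 59.3 FPKM in the wild-type library. The exception was Lyve1, the highest of the list in both, with 552.5 FPKM in the library labelled knockout and 526 FPKM in the wild-type library. With Lyve1 the lymphatic endothelial list summed to 614 FPKM in the library labelled knockout and 844 FPKM in the wild-type library. Lyve1 held most of either sum, and every other gene of the list was lower in the library labelled knockout. Pan-endothelial markers summed to 239.7 FPKM in the library labelled knockout and 1272 FPKM in the wild-type library. The sum of the granule genes was thus far above the pan-endothelial sum in the library labelled knockout and far below it in the wild-type library. Fibroblast markers summed to 863 FPKM in the library labelled knockout and 3309 FPKM in the wild-type library, above the pan-endothelial sum in both. Of 6 fibroblast markers 5 were lower by 2-fold or more in the library labelled knockout, and of 4 keratinocyte markers 3. Lower values were thus not particular to the endothelial markers. Dot1l itself was 10.4 FPKM in the library labelled knockout and 5.86 FPKM in the wild-type library. The value covers the whole gene and does not check the label.

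**Figure D5:**
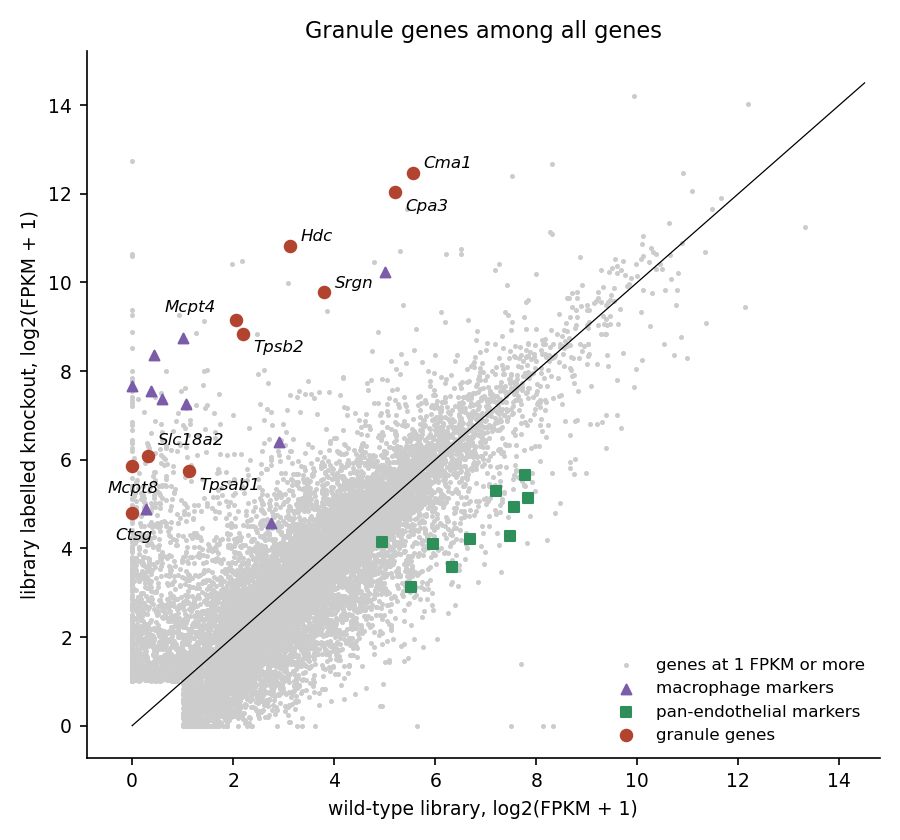
Each gene at 1 FPKM or more in either library, by log2(FPKM + 1) in the library labelled knockout (vertical) and in the wild-type library (horizontal), with the line of equal values. The granule genes (circles) and macrophage markers (triangles) lie above the line and the pan-endothelial markers (squares) below it.

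The genes nearest to the granule genes in their difference were taken among those with at least 10 FPKM in either library. With only 2 libraries, likeness is the distance of 1 log2 difference from the granule gene median of 6.32. The 5 nearest were S100a9, Stfa1, Marco, Tyrobp and Fermt3, with log2 differences from 6.25 to 6.37. Stfa1 (76.3 FPKM in the library labelled knockout) and Marco (81.6 FPKM) were listed at 0 in the wild-type library. The differences of Stfa1 and Marco thus rest on the pseudocount. S100a9 was 205 FPKM in the library labelled knockout and 1.63 FPKM in the wild-type library, and Tyrobp was 456 FPKM in the library labelled knockout and 4.52 FPKM in the wild-type library.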

How the data were processed

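Values were used as FPKM as deposited by the authors, 1 per gene symbol and library. The submitters' processing notes name STAR 2.5.2b, Cufflinks 2.2.1, Cuffnorm, R 3.3.2 and the build mm9. The sources used here do not state the role of each tool, the annotation or any scaling between libraries. Differences were computed with Python 3.11.15 as log2(FPKM + 1), and 1 FPKM in either library was the minimum for a gene to be counted. Nothing was tested, since each genotype had a single library. The granule genes and all lists were chosen with earlier results of these data known. Named genes were the granule genes, members of the 9 pathway lists and of the cell type marker lists, the 5 genes nearest the granule gene median, and Dot1l. Of 212 list genes 211 matched a row; Ly6g did not. Depth was estimated by scanning 500 steps for the one that gave the most whole fragments: in transcripts of at least 2500 nt, 76.0% of 175 values in the library labelled knockout and 83.0% of 159 in the wild-type library lay within 0.1 of a whole number. The scan was tested on simulated data. Promoters came from RefSeq (GRCm38.p6). Alternatives were pseudocounts, scalings, minimums, fold thresholds and leaving out granule genes. Some members of the lists are left out by name.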

Additional observations from a re-analysis of the deposited data

How the results depend on the processing

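No paired analysis was possible because a single library stands on either side, and none could be left out. All 10 granule genes remained higher by 2-fold or more in the library labelled knockout under every pseudocount, scaling and minimum tried. With a pseudocount of 1 all 10 also passed 1.5-fold, 3-fold and 16-fold. With a pseudocount of 5, Ctsg (2.68), Tpsab1 (3.21), Mcpt8 (3.64) and Slc18a2 (3.79) fell below 16-fold. All 60 single-gene differences recomputed under another pseudocount or scaling were above 0, from 2.68 to 9.16. The median log2 difference of 6.32 became 7.21 and 5.69 with pseudocounts of 0.1 and 5, 6.51 with both libraries brought to a sum of 1000000, 6.71 with that rescaling without small RNAs, Rpph1 and Rmrp, 6.18 at the same upper quartile, 6.33 with the median gene centred, 6.84 without Srgn, Slc18a2 and Ctsg, and 6.75 without Mcpt8 and Ctsg, chosen after seeing the data. The log2 ratio of the summed FPKM of 6.97 became, in the same order of scalings, 6.61, 6.81, 6.82 and 6.98, and 7.04 without Srgn, Slc18a2 and Ctsg. Rescaling to a sum of 1000000 shifted the median of all genes by -0.33. In the rescalings to that sum the pseudocount stayed at 1 while the values of both libraries rose. The granule gene medians of 6.51 and 6.71 thus also reflect a smaller weight of the pseudocount. Of all genes, the 2231 higher by 2-fold or more numbered 1323 under a pseudocount of 5, 3464 at 1.5-fold, 1298 at 3-fold and 267 at 16-fold, a threshold added after seeing the data. The 2060 lower became 921, 3450 and 906, and 3330 when rescaled to a sum of 1000000.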
